A study of Mus musculus with 9 samples.

Results

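The genes described here are 38 mitosis and spindle genes: cyclins and regulators of CDK1, mitotic kinases, spindle checkpoint, centromere and kinetochore genes, mitotic kinesins, and genes of cytokinesis and mitotic exit. They were chosen by name, as the entries of the expression table whose gene symbol is on that list, and all 38 were found among its 35321 genes. Mitosis begins when CDK1 bound to cyclin B is switched on, after which kinases of the Aurora and Polo families build the spindle and kinesin motors organise its microtubules. The spindle checkpoint holds the anaphase-promoting complex back until the kinetochores are attached, and cyclin B is then degraded and the cell divides. In tumours the level of these transcripts is widely used as a measure of how many cells are dividing, and much of the set is transcribed late in the cell cycle under MuvB complexes with B-MYB and FOXM1.

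The samples were subcutaneous tumours of male C57BL/6 mice, 4 to 5 weeks old, that had received LLC cells in the right flank. LLC is the Lewis lung carcinoma line, which arose in that strain. Intraperitoneal dosing started 5 days after the cells. There were 3 samples of the PBS vehicle, 3 of 0.1 mg/kg digoxin, called the low dose here, and 3 of 1 mg/kg digoxin, the high dose. A cardiac glycoside, digoxin inhibits the sodium-potassium pump, and the mouse form of that pump binds it far less tightly than the human form. All groups carried the same implanted line and differed, as far as the labels say, in the treatment alone. Separate mice are not stated for the samples of a group, so the p-values reflect only how far these samples differ, and that spread may be technical. The values are FPKM, fragments per kilobase of transcript scaled to library depth, made by the authors from poly(A)-selected libraries.

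Promoter sequence is shown for the 4 genes with the smallest p between the high dose and vehicle among those with an entry in the RefSeq promoter table. Of these, 2 fell and 2 rose, so that both directions are seen. Each run is the 250 bases before the annotated start, on the strand of the gene, in build GRCm38.p6. The window of Bub1b is chr2:118597961-118598210 on the plus strand. Those of Top2a (chr11:99024190-99024439), Aurka (chr2:172370571-172370820) and Ccnb2 (chr9:70421555-70421804) lie on the minus strand. Capitals mark the letters of a pair of motifs known from late cell cycle promoters, read on either strand. The CHR was searched as TTTGAA or TTCGAA, so that TTCAAA is a match on the other strand and TTCGAA reads alike on both, and the CCAAT box as CCAAT, so that ATTGG is one.
Bub1b: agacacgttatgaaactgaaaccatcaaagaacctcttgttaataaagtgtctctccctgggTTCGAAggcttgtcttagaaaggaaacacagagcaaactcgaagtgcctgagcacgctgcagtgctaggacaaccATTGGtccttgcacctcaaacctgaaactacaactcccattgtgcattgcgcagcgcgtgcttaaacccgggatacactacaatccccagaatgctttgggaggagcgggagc
Top2a: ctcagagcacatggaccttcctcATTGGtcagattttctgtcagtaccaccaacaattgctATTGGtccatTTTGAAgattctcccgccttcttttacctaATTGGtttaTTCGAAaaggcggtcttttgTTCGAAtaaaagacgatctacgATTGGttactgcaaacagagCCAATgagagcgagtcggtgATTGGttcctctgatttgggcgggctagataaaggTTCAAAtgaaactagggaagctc
Aurka: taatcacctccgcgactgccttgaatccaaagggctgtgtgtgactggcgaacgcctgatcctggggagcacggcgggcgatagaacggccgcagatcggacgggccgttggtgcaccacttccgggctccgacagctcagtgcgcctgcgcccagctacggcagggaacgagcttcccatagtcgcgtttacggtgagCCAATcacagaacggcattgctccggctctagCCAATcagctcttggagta
Ccnb2: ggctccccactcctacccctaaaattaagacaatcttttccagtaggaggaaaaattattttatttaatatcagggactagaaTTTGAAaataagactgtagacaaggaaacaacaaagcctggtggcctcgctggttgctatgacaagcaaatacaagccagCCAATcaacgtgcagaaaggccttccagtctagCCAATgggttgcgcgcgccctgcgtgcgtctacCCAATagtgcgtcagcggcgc

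In these windows Top2a held 4 CHR matches and 6 CCAAT boxes, Bub1b 1 of each, Ccnb2 1 CHR match and 3 CCAAT boxes, and Aurka 2 CCAAT boxes and no CHR match. No CHR match shared a base with a CCAAT box. The table had an entry for 31 of the 38 genes. Genes without one were Ccna2, Cdc25c, Foxm1, Aurkb, Incenp, Tpx2 and Kif20a. A CHR match stood in 12 of the 31 (38.7%), against 19.6% of the 27025 genes in the table, and a CCAAT box in 23 (74.2%), against 37.5%. Both motifs stood in 11 (35.5%), against 7.93%. Genes that rose and genes that fell both held them: a CCAAT box stood in 3 of 4 genes that rose and in 9 of 10 that fell at 1 or both doses, and a CHR match in 2 of 4 and 5 of 10. Of the 17 called at neither dose, 11 held a CCAAT box and 5 a CHR match. In these counts a gene held a motif if any of its entries did, while each window shown is the first entry of its gene. These are matches of letters, not measured binding.

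Depth, recovered from the spacing of the FPKM values, was 48649867 to 51810956 reads in vehicle libraries, 42870997 to 43319883 at the low dose and 40517062 to 42252370 at the high dose. All 38 genes passed the filter of 1 FPKM in at least 3 of 9 samples, which left 13687 genes tested. Each had at least 656 recovered reads in every library (Ttk at the low end, up to 22999 for Top2a). On the principal component with 69.4% of the variance, vehicle libraries scored -47.6 to -55, and 4 of the 6 digoxin libraries scored 35.7 to 37.9. The other two stood apart between them: low-dose replicate 2 at -0.604 and high-dose replicate 1 at 9.12. On the next component, with 12.4% of the variance, high-dose replicate 1 scored -43.9. Low-dose replicate 2 scored 0.612 there, within the -1.17 to 19.1 of the remaining libraries, so only high-dose replicate 1 stood alone on it. Of 10 epithelial and lung carcinoma markers, Epcam, Cdh1, Krt7, Nkx2-1 and Sftpc were below 1 FPKM in every library. The keratin genes among the others differed between vehicle and digoxin. Krt8 had 1.70 to 4.13 FPKM with vehicle, 58.7 to 105 FPKM at the low dose and 103 to 126 FPKM at the high dose (log2 differences 4.54 and 5.0, limma adjusted p = 0.000101 and 5.6e-05). Krt19 had 0.194 to 0.310, 2.25 to 5.56 and 7.76 to 9.44 FPKM in the same order (1.80 and 2.95, limma adjusted p = 0.00105 and 0.000182). Krt18, whose product pairs with keratin 8, had 43.1 to 63.0 FPKM with vehicle, 1.62, 16.8 and 0.932 FPKM at the low dose, and 8.84, 1.06 and 1.03 FPKM at the high dose (-3.64 and -4.02, limma adjusted p = 0.0113 and 0.0066), so that the libraries that stood apart held the highest digoxin value of each dose. Vim, the mesenchymal filament gene, had 706 to 799, 940 to 964 and 867 to 1350 FPKM, and passed at the high dose (0.44, limma adjusted p = 0.0485). The part of these shifts in the differences below was not tested.

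As deposited, the summed FPKM of the 38 genes in digoxin tumours overlapped that in vehicle tumours, while single genes rose or fell. The sum was 816, 763 and 809 FPKM in the vehicle libraries, 731, 791 and 802 FPKM at the low dose, and 785, 784 and 799 FPKM at the high dose. The ranges of the groups overlapped, with means of 796 ± 28.5, 775 ± 38.4 and 789 ± 8.39 FPKM (SD, n = 3 each). Genes with high FPKM weigh most in this sum. The mean log2(FPKM + 1) of the 38 genes was 4.16, 4.11 and 4.19 in the vehicle libraries. It was 3.98, 4.09 and 4.09 at the low dose, and 4.08, 4.07 and 4.10 at the high dose. By that measure each digoxin library lay below each vehicle library, so the overlap depends on the summary used. It also depends on the scaling, because the total FPKM over all genes differed between the groups. That total was 303489 to 316244 in vehicle libraries, 331127 to 339246 at the low dose and 323986 to 331681 at the high dose. The sum above is not corrected for this. Neither measure was tested. In bulk tumours fewer cells of a type and less RNA per cell cannot be told apart, nor can dividing tumour cells from other dividing cells.

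Taken gene by gene, limma on log2(FPKM + 1), with Benjamini-Hochberg adjustment over all tested genes and a threshold of 0.05, called 17 of 38 genes (44.7%) at the low dose against vehicle. That stands beside 42.2% of all tested genes. Of the 17, 5 were higher and 12 lower, where 21.6% and 20.7% of all genes were. At the high dose against vehicle 15 were called (39.5%, background 45.9%), 5 higher and 10 lower, where 20.7% and 25.2% of all genes were. Both shares of called genes are near the background and are no result about this set. Values of the groups did not overlap for 22 genes (57.9%) in each comparison, against 60.2% of all genes at the low dose and 58.3% at the high dose. The median difference of the 38 genes was -0.07 on the log2 scale at the low dose (all genes 0.02) and -0.09 at the high dose (all genes -0.04). The median size of the difference, whatever its sign, was 0.20 at each dose, against 0.32 and 0.33 over all genes. Both comparisons share the vehicle libraries.

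The counts moved with single libraries. At the low dose the count was 11 (28.9%) without replicate 3 of that dose, where 24.9% of all genes were called. At the high dose it was 6 (15.8%) without vehicle replicate 2 and 8 (21.1%) without vehicle replicate 3, where 31.2% and 30.2% of all genes were called. It was 7 (18.4%) without replicate 2 or without replicate 3 of that dose, where 34.2% and 32.5% were, so that the calls over all genes dropped in these fits too. Without both libraries that stood apart, a setting chosen after seeing the data, 21 genes were called at the low dose (7 higher, 14 lower) and 20 at the high dose (6 higher, 14 lower), while 61.5% and 61.3% of all genes were called. Rescaled to TPM, the split was 3 higher and 15 lower at the low dose, against 5 and 12 as deposited, and 4 and 15 at the high dose, against 5 and 10. With equal medians it was 5 and 5 at the high dose. Calls lost at the low dose with no filter were Foxm1, Aurkb and Kif23, with TPM Foxm1 and Aurkb, and with quantile normalisation, equal medians or no variance trend Aurkb alone. Lost at the high dose with no filter were Kif11, Kif23, Ect2 and Racgap1, with equal medians those 4 and Ccna2, and with no trend Ccna2 and Racgap1. Ect2 was also lost there with quantile normalisation or a fit of only the 2 groups compared, and Bub3 with TPM. As deposited, 10 genes were lower at both doses, and 4 were higher at both, which were Ccnb2, Foxm1, Aurka and Aurkb. No gene was called in opposite directions. Calls kept in every alternative tried were Ccna2, Ccnb2, Plk4, Bub1, Bub1b, Kif20a, Ect2, Prc1 and Top2a at the low dose (9 of 17), and Ccnb2, Plk4, Aurka, Bub1b, Kif20a and Top2a at the high dose (6 of 15).

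**Figure D1:**
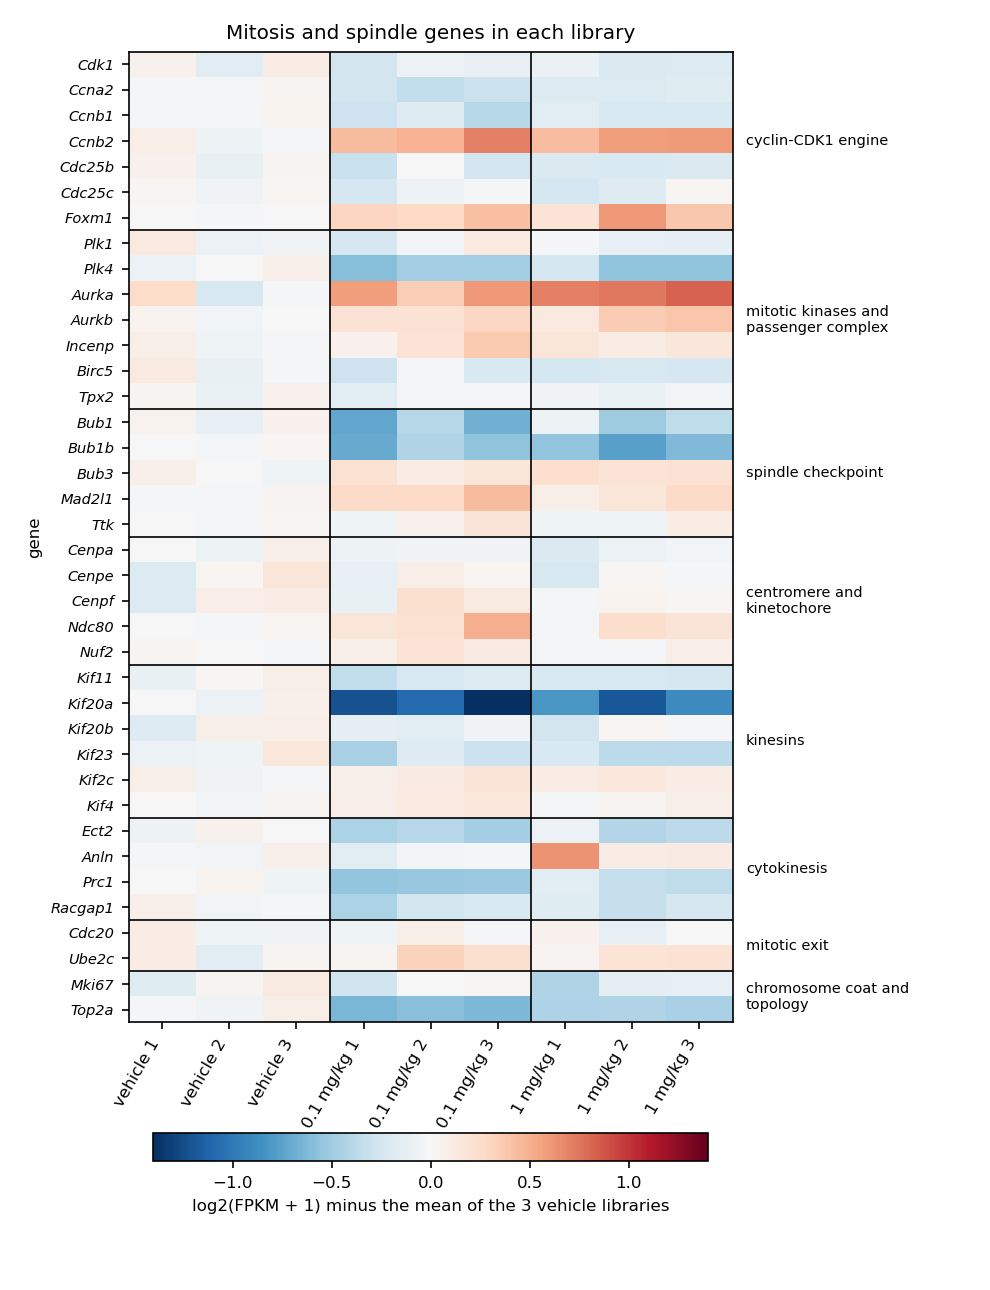
Level of each of the 38 genes (down the page, grouped by role) in each of the 9 libraries (across), as log2(FPKM + 1) minus the mean of the 3 vehicle libraries, with blue below and red above vehicle. Kif20a is the deepest blue in the digoxin libraries (down to -1.39), and Aurka and Ccnb2 are red in all 6 of them.

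**Figure D2:**
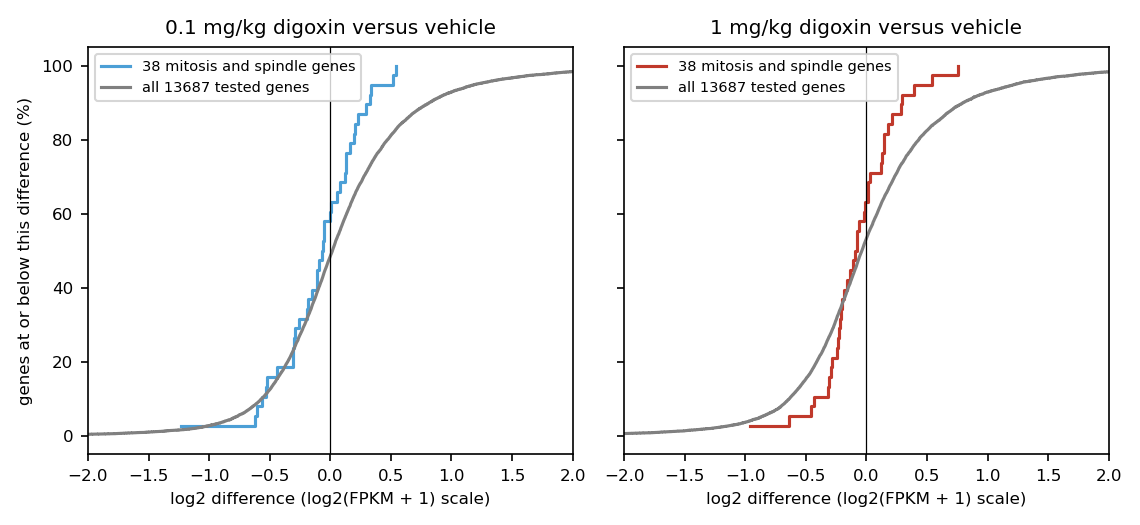
Share of genes (vertical axis, percent) at or below each log2 difference from vehicle (horizontal axis, log2(FPKM + 1) scale, cut at -2 and 2) for the 38 genes in colour and all 13687 tested genes in grey, at the low dose (left) and the high dose (right). The coloured steps are steeper than the grey line, with a median size of the difference of 0.20 at each dose against 0.32 and 0.33 for all genes.

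Among the genes that set CDK1 going, the cyclin B2 transcript rose at both doses while that of cyclin A2 fell. Ccnb2, which encodes cyclin B2, a CDK1 partner found at the Golgi, had 59.0, 52.9 and 54.5 FPKM with vehicle, 75.5, 77.8 and 91.0 FPKM at the low dose, and 75.3, 83.8 and 84.4 FPKM at the high dose. Every digoxin library was above every vehicle library. The log2 difference from vehicle was 0.54 (SE 0.09) at each dose, with limma adjusted p = 0.00315 at the low dose and 0.00262 at the high dose. With a loess correction of each library for GC content and gene length, a setting added after seeing the data, the low-dose difference was 0.35 (0.0113). Ccna2, which encodes cyclin A2, the partner of CDK2 and then CDK1 from S phase into mitosis, had 30.6, 30.9 and 32.1 FPKM with vehicle. It had 26.0, 24.4 and 25.1 FPKM at the low dose, and 27.1, 27.3 and 27.6 FPKM at the high dose. None of the 3 ranges overlapped, and the fall was -0.30 (SE 0.06, limma adjusted p = 0.00593) at the low dose and -0.19 (SE 0.06, limma adjusted p = 0.0337) at the high dose. The Ccna2 call at the high dose was lost in 5 of the 9 fits that each left out 1 library: without vehicle replicate 1 (limma adjusted p = 0.0612), 2 (0.086) or 3 (0.122), and without replicate 2 (0.0835) or 3 (0.0837) of that dose.

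The transcript of cyclin B1, the main mitotic cyclin, was lower than vehicle in every digoxin library. Ccnb1 had 26.9, 27.0 and 28.5 FPKM with vehicle, 22.2, 24.1 and 20.5 FPKM at the low dose, and 24.5, 23.4 and 23.5 FPKM at the high dose. The closest pair of values was 24.5 FPKM in a high-dose library against 26.9 FPKM in a vehicle library. The fall passed at the low dose (log2 difference -0.29, SE 0.07, limma adjusted p = 0.0147), but not without vehicle replicate 3 (0.0625) or replicate 3 of that dose (0.0564). The difference at the high dose was -0.20 (SE 0.07, limma adjusted p = 0.0546). The ratio of Ccnb2 to Ccnb1 within a library, which does not depend on how libraries are scaled, was chosen after its values were seen and has no test. It was 2.19, 1.96 and 1.91 with vehicle, 3.4, 3.23 and 4.43 at the low dose, and 3.08, 3.57 and 3.60 at the high dose, with no overlap between digoxin and vehicle. That lack of overlap follows from the values of the genes themselves, as Ccnb2 was above and Ccnb1 below vehicle in every digoxin library.

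Foxm1, a transcription factor that drives many genes of this set, had 17.3, 17.1 and 17.4 FPKM with vehicle, 21.5, 21.2 and 23.5 FPKM at the low dose, and 19.9, 26.8 and 22.8 FPKM at the high dose. Each digoxin value exceeded the vehicle values, and the dose groups overlapped. It rose by 0.33 (SE 0.10, limma adjusted p = 0.0308) at the low dose and by 0.39 (SE 0.10, limma adjusted p = 0.0153) at the high dose. The call at the low dose was lost in 5 of 9 leave-one-out fits: without vehicle replicate 1 (limma adjusted p = 0.0736), 2 (0.0877) or 3 (0.0798), or replicate 1 (0.0656) or 3 (0.106) of that dose. The high-dose call was lost without vehicle replicate 2 (0.0513). Cdk1, the kinase itself, had 29.0, 24.7 and 29.9 FPKM with vehicle, 23.0, 26.1 and 25.6 FPKM at the low dose, and 25.9, 24.0 and 24.2 FPKM at the high dose. Its groups overlapped and neither difference passed: -0.15 (95% interval -0.36 to 0.05) at the low dose and -0.16 (-0.37 to 0.04) at the high dose. The phosphatase genes that activate CDK1, Cdc25b and Cdc25c, did not pass either, with differences of -0.19 and -0.11 at the low dose and -0.21 and -0.13 at the high dose. In all, 2 of these 7 genes rose and 2 fell at the low dose, and 2 rose and 1 fell at the high dose.

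**Figure D3:**
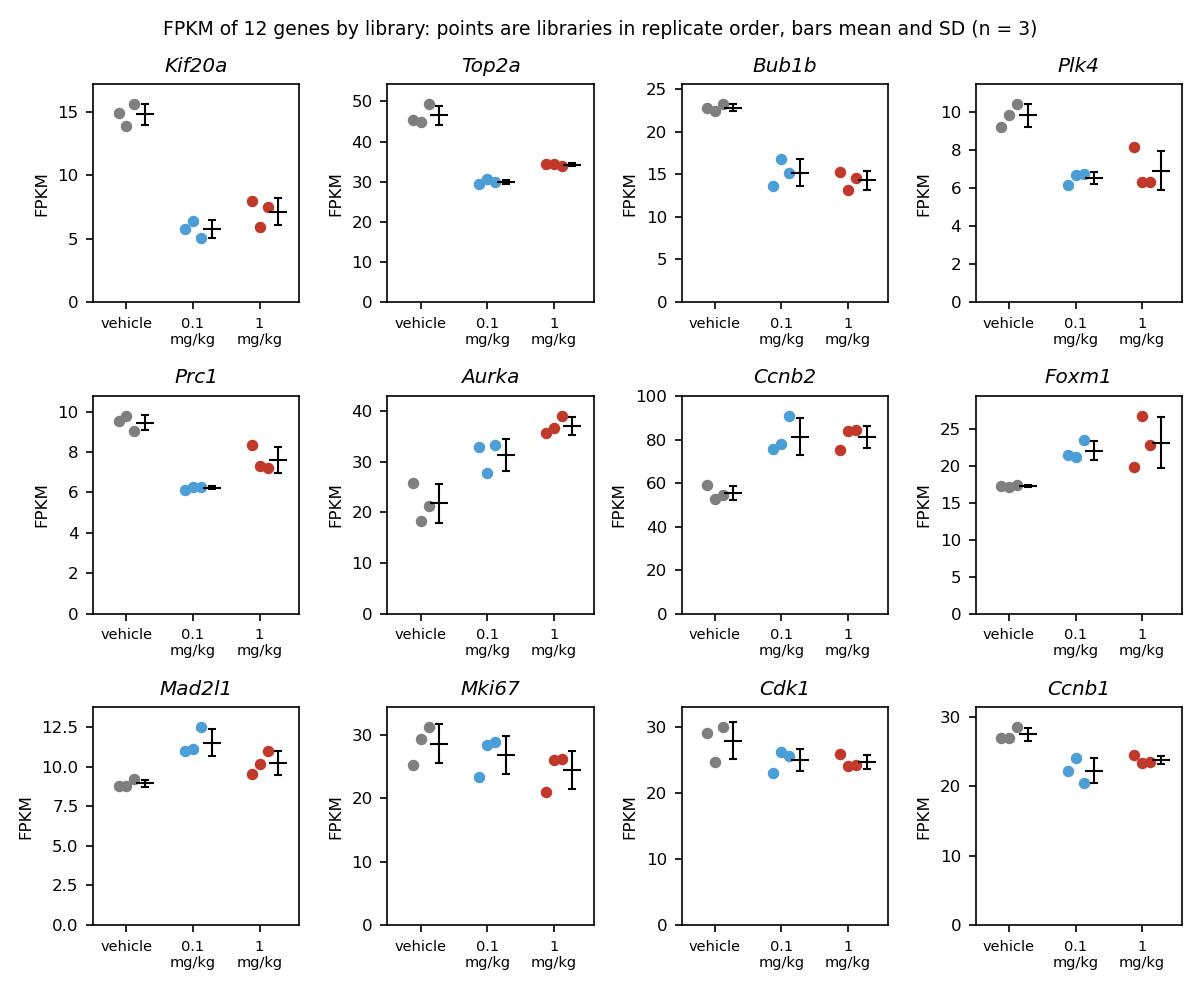
FPKM (vertical axes, from 0) of 12 genes in the 3 libraries each of vehicle (grey), the low dose (blue) and the high dose (red), with the mean and SD (n = 3) beside the points. Kif20a, Top2a, Bub1b, Plk4 and Prc1 lie below vehicle in all 6 digoxin libraries, Aurka, Ccnb2, Foxm1 and Mad2l1 lie above it, and Mki67 and Cdk1 overlap it.

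Among the mitotic kinases, the Aurora A transcript rose and that of the centriole kinase fell, while the call of Aurora B depended on the processing. Aurka, which encodes Aurora A, a kinase of the spindle poles, had 25.9, 18.3 and 21.2 FPKM with vehicle, 33.0, 27.7 and 33.4 FPKM at the low dose, and 35.7, 36.6 and 39.1 FPKM at the high dose. The 3 groups did not overlap. The rise was 0.52 (SE 0.13, limma adjusted p = 0.013) at the low dose and 0.76 (SE 0.13, limma adjusted p = 0.00248) at the high dose, the largest rise of the 38 genes at that dose. Without low-dose replicate 3 the call at that dose was lost (0.0509), as it was with the correction for GC content and length (0.32, limma adjusted p = 0.0505). Tpx2, which encodes the spindle protein that activates Aurora A, did not pass, at -0.06 at each dose (95% interval -0.23 to 0.10 in both). Plk1, which encodes the Polo-like kinase of mitotic entry, did not pass either, at -0.05 (-0.29 to 0.19) at the low dose and -0.10 (-0.33 to 0.14) at the high dose. The ratio of Aurka to Plk1 within a library, also picked after its values were seen, averaged 0.625 ± 0.0587 with vehicle, 0.944 ± 0.163 at the low dose and 1.15 ± 0.0918 at the high dose (SD, n = 3 each).

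Aurkb encodes Aurora B, the kinase of the chromosomal passenger complex, which corrects faulty attachments of chromosomes to the spindle. It had 29.5, 27.7 and 28.5 FPKM with vehicle, 33.0, 33.0 and 35.2 FPKM at the low dose, and 31.5, 36.9 and 37.8 FPKM at the high dose. The digoxin values all exceeded the vehicle values. The rise was 0.23 (SE 0.08, limma adjusted p = 0.0487) at the low dose and 0.30 (SE 0.08, limma adjusted p = 0.0182) at the high dose. At the low dose the call held in 1 of 9 leave-one-out fits only, that without high-dose replicate 1, and the other 8 gave adjusted p of 0.0566 to 0.147. Rescaled to TPM the low-dose difference was 0.12 (limma adjusted p = 0.221), and with the correction for GC content and length it was 0.02 (0.786), while the high-dose difference was 0.17 (0.0461) with that correction. The call at the high dose was lost without vehicle replicate 2 (0.0671) or 3 (0.0596), or replicate 2 (0.0631) or 3 (0.0716) of that dose. The partners of Aurora B in the complex did not pass: Incenp, its scaffold, differed by 0.20 and 0.15 at the low and the high dose, and Birc5, which encodes survivin, by -0.18 and -0.24.

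Plk4, the kinase that starts centriole duplication, had 9.21, 9.86 and 10.4 FPKM with vehicle, 6.17, 6.70 and 6.74 FPKM at the low dose, and 8.13, 6.29 and 6.33 FPKM at the high dose. All digoxin libraries were below all vehicle libraries, and high-dose replicate 1, which stood apart, was the nearest to vehicle. The fall was -0.52 (SE 0.10, limma adjusted p = 0.0057) at the low dose and -0.46 (SE 0.10, limma adjusted p = 0.00825) at the high dose, and it was kept in every alternative. Of these 7 kinase and passenger genes, 2 rose and 1 fell at each dose, and the 3 calls (42.9%) are near the share of all genes called.

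The called spindle checkpoint genes went in both directions. Bub1b encodes BUBR1, which as part of the mitotic checkpoint complex binds and inhibits the anaphase-promoting complex. It had 22.8, 22.4 and 23.2 FPKM with vehicle, 13.6, 16.8 and 15.1 FPKM at the low dose, and 15.2, 13.1 and 14.5 FPKM at the high dose. The highest digoxin value lay well under the lowest vehicle value. The fall was -0.56 (SE 0.09, limma adjusted p = 0.00243) at the low dose and -0.64 (SE 0.09, limma adjusted p = 0.00125) at the high dose, kept in every alternative. Bub1, the related kinase at the kinetochore, had 16.0, 14.1 and 16.1 FPKM with vehicle, 8.87, 11.4 and 9.24 FPKM at the low dose, and 14.6, 10.6 and 11.8 FPKM at the high dose. It fell at the low dose (-0.60, SE 0.13, limma adjusted p = 0.00812). At the high dose replicate 1 lay within the vehicle range, and the difference of -0.31 (SE 0.13) had a limma adjusted p of 0.0849.

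Mad2l1 encodes MAD2, which captures CDC20 in the same inhibitory complex, and it had 8.81, 8.80 and 9.23 FPKM with vehicle. It had 11.0, 11.1 and 12.5 FPKM at the low dose, and 9.53, 10.2 and 11.0 FPKM at the high dose. Digoxin and vehicle values did not overlap at either dose. The rise passed at the low dose (0.33, SE 0.08, limma adjusted p = 0.0136), though not without vehicle replicate 2 (0.052) or replicate 3 of that dose (0.0543). The difference at the high dose was 0.18 (SE 0.08, limma adjusted p = 0.11). Bub3, which brings BUB1 and BUBR1 to the kinetochore, had 18.6, 17.7 and 16.9 FPKM with vehicle, 20.7, 19.1 and 20.1 FPKM at the low dose, and 21.1, 20.3 and 20.5 FPKM at the high dose. These groups did not overlap with vehicle either. The rise passed at the high dose (0.21, SE 0.07, limma adjusted p = 0.0312) and was 0.16 (SE 0.07, limma adjusted p = 0.0772) at the low dose. Rescaled to TPM it was 0.13 (0.139). It was lost without vehicle replicate 2 (0.0886) or 3 (0.119), or high-dose replicate 2 (0.0652) or 3 (0.0805).

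Ttk, which encodes MPS1, the kinase at the top of the checkpoint, differed by 0.06 at the low dose and by -0.01 at the high dose, and neither passed. That made 1 of the 5 checkpoint genes higher and 2 lower at the low dose, and 1 higher and 1 lower at the high dose. The calls were 3 of 5 (60%) and 2 of 5 (40%), beside 42.2% and 45.9% of all genes. The ratio of Mad2l1 to Bub1b within a library, chosen after its values were seen, was 0.386, 0.393 and 0.398 with vehicle. It was 0.803, 0.661 and 0.831 at the low dose, and 0.626, 0.776 and 0.760 at the high dose. All 6 digoxin ratios lay above the vehicle ratios, which follows from Mad2l1 being above and Bub1b below vehicle in every digoxin library.

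No centromere or kinetochore gene was called by limma or by limma-voom at either dose. At an unadjusted p under 0.05 there was 1 of the 5 at the low dose, Ndc80, and 0 at the high dose. Ndc80, a subunit of the complex that grips microtubules, had 5.64, 5.49 and 5.78 FPKM with vehicle, 6.45, 6.67 and 8.45 FPKM at the low dose, and 5.49, 6.88 and 6.51 FPKM at the high dose. Its low-dose values were all above vehicle (difference 0.30, 95% interval 0.04 to 0.55, limma adjusted p = 0.0631). Nuf2, its direct partner, differed by 0.13 and 0.01 at the low and the high dose. Cenpa, the histone H3 variant of centromeres, differed by -0.05 and -0.11, the kinetochore motor gene Cenpe by less than 0.1 in size at each dose, and Cenpf by 0.08 and 0.01. For these 4 genes the 95% intervals lay between -0.34 and 0.34 at both doses.

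Of the 6 kinesins, the genes Kif20a, Kif11 and Kif23 fell at each dose (50% called, beside 42.2% and 45.9% of all genes). Kif20a encodes MKLP2, the motor that carries the passenger complex to the spindle midzone for cytokinesis, and it had the largest fall of the 38 genes at both doses. It had 14.9, 13.9 and 15.6 FPKM with vehicle, 5.79, 6.43 and 5.02 FPKM at the low dose, and 7.97, 5.94 and 7.51 FPKM at the high dose. Every digoxin library was far below every vehicle library. The difference was -1.23 (SE 0.12, limma adjusted p = 0.000418) at the low dose and -0.96 (SE 0.12, limma adjusted p = 0.000832) at the high dose, and it held in every alternative. The mean was 0.389 times that of vehicle at the low dose and 0.483 times at the high dose. Its relative Kif20b, a motor of late cytokinesis, did not pass, at -0.11 (95% interval -0.35 to 0.14) and -0.08 (-0.33 to 0.17).

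Kif11 encodes Eg5, which pushes the spindle poles apart, and Kif23 encodes MKLP1, a component of centralspindlin. Kif11 averaged 11.8 ± 0.798 FPKM with vehicle, 9.74 ± 0.592 FPKM at the low dose and 9.92 ± 0.0715 FPKM at the high dose (SD, n = 3 each). Kif23 had 9.64, 9.75 and 11.4 FPKM with vehicle, 7.22, 8.91 and 8.14 FPKM at the low dose, and 8.68, 7.72 and 7.69 FPKM at the high dose. Digoxin and vehicle values overlapped for neither gene. Kif11 fell by 0.25 on the log2 scale at the low dose (limma adjusted p = 0.0277) and by 0.23 at the high dose (0.0373), and Kif23 fell by 0.31 (0.0363) and by 0.32 (0.031). The Kif11 call at the low dose was lost without vehicle replicate 2 (0.0892) or 3 (0.107) or replicate 1 of that dose (0.0951). That of Kif23 was lost without any 1 vehicle library (0.054, 0.0684 and 0.132 for replicates 1, 2 and 3), without low-dose replicate 1 (0.121) or 3 (0.0881), or without high-dose replicate 3 (0.0519). With the correction for GC content and length Kif11 differed by -0.17 (0.0694) at the low dose and by -0.14 (0.121) at the high dose. At the high dose both genes lost their calls without vehicle replicate 2 or 3 or replicate 2 or 3 of that dose, with adjusted p of 0.0847 to 0.136 for Kif11 and 0.0587 to 0.116 for Kif23. Kif2c, a microtubule depolymerase that corrects attachments, and Kif4, a chromosome-arm motor, did not pass, with differences of 0.12 and 0.13 at the low dose and 0.12 and 0.03 at the high dose.

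Of the 4 cytokinesis genes, Prc1, Ect2 and Racgap1 fell at each dose (75%, where 20.7% and 25.2% of all genes were lower), too few genes for a statement about the group. Prc1, which bundles the antiparallel microtubules of the midzone, had 9.52, 9.79 and 9.05 FPKM with vehicle, 6.13, 6.25 and 6.28 FPKM at the low dose, and 8.35, 7.29 and 7.19 FPKM at the high dose. The groups followed each other without overlap, with the low dose lowest. The fall was -0.53 (SE 0.08, limma adjusted p = 0.00182) at the low dose and -0.28 (SE 0.08, limma adjusted p = 0.0182) at the high dose. The high-dose call was lost without vehicle replicate 1 (0.0508) or 2 (0.0708), or replicate 2 (0.0619) or 3 (0.071) of that dose. Ect2, the exchange factor that switches on RhoA for the contractile ring, averaged 11.5 ± 0.637 FPKM with vehicle, 8.24 ± 0.258 FPKM at the low dose and 9.29 ± 1.29 FPKM at the high dose (SD, n = 3 each). High-dose replicate 1, at 10.8 FPKM, lay just under the lowest vehicle library at 10.9 FPKM. Ect2 fell by 0.44 (limma adjusted p = 0.00868) at the low dose and by 0.29 (0.0379) at the high dose. The call at the high dose was lost in 7 of 9 leave-one-out fits (0.0528 to 0.125), all but those without low-dose replicate 2 or high-dose replicate 1.

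Racgap1, the centralspindlin partner that recruits ECT2, averaged 31.1 ± 1.37 FPKM with vehicle, 24.9 ± 2.04 FPKM at the low dose and 26.1 ± 1.42 FPKM at the high dose (SD, n = 3 each). Its digoxin values, 22.6 to 27.4 FPKM, did not overlap with vehicle. It fell by 0.31 at the low dose (limma adjusted p = 0.017) and by 0.24 at the high dose (0.0376). The call at the low dose was lost without vehicle replicate 1 (0.0583) or replicate 1 of that dose (0.0582). With the correction for GC content and length the high-dose difference was -0.15 (0.195). The high-dose call was lost without any 1 vehicle library (0.114, 0.0755 and 0.0832 for replicates 1, 2 and 3) or replicate 2 (0.121) or 3 (0.089) of that dose. Anln, which encodes the ring scaffold anillin, had 16.0, 15.8 and 17.1 FPKM with vehicle, 14.6, 15.8 and 16.0 FPKM at the low dose, and 25.8, 17.6 and 17.7 FPKM at the high dose. The value of 25.8 FPKM belonged to replicate 1, which stood apart. No difference of Anln passed, at -0.07 (95% interval -0.38 to 0.24) for the low dose and 0.28 (-0.03 to 0.59) for the high dose.

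The genes of mitotic exit did not pass at either dose, by limma, by limma-voom or at an unadjusted p under 0.05 (0 of 2 each). Cdc20, the activator of the anaphase-promoting complex and in vehicle tumours the highest of the set per length, averaged 66.8 ± 4.51 FPKM with vehicle, 66.7 ± 3.57 FPKM at the low dose and 65.9 ± 4.01 FPKM at the high dose (SD, n = 3 each). The 95% intervals of its log2 difference were -0.18 to 0.18 and -0.20 to 0.16. Ube2c, the ubiquitin-conjugating enzyme of that complex, differed by 0.19 (-0.03 to 0.42) and 0.15 (-0.08 to 0.37).

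Of the best-known markers of dividing cells, Top2a fell at both doses and Mki67 did not pass at either. Top2a encodes topoisomerase II alpha, which untangles chromosomes before they part, and had 45.5, 44.9 and 49.3 FPKM with vehicle, 29.5, 30.6 and 29.8 FPKM at the low dose, and 34.3, 34.5 and 33.8 FPKM at the high dose. The 3 groups did not overlap, with the low dose lowest and little spread within a dose. The fall was -0.62 (SE 0.06, limma adjusted p = 0.000502) at the low dose and -0.43 (SE 0.06, limma adjusted p = 0.00149) at the high dose, kept in every alternative. Mki67 encodes Ki-67, the protein that coats mitotic chromosomes and serves as the standard proliferation stain. It had 25.3, 29.4 and 31.2 FPKM with vehicle, 23.3, 28.4 and 28.8 FPKM at the low dose, and 21, 26.1 and 26.2 FPKM at the high dose. All its groups overlapped, and neither difference passed: -0.09 (95% interval -0.37 to 0.19) at the low dose and -0.22 (-0.50 to 0.06) at the high dose.

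**Figure D4:**
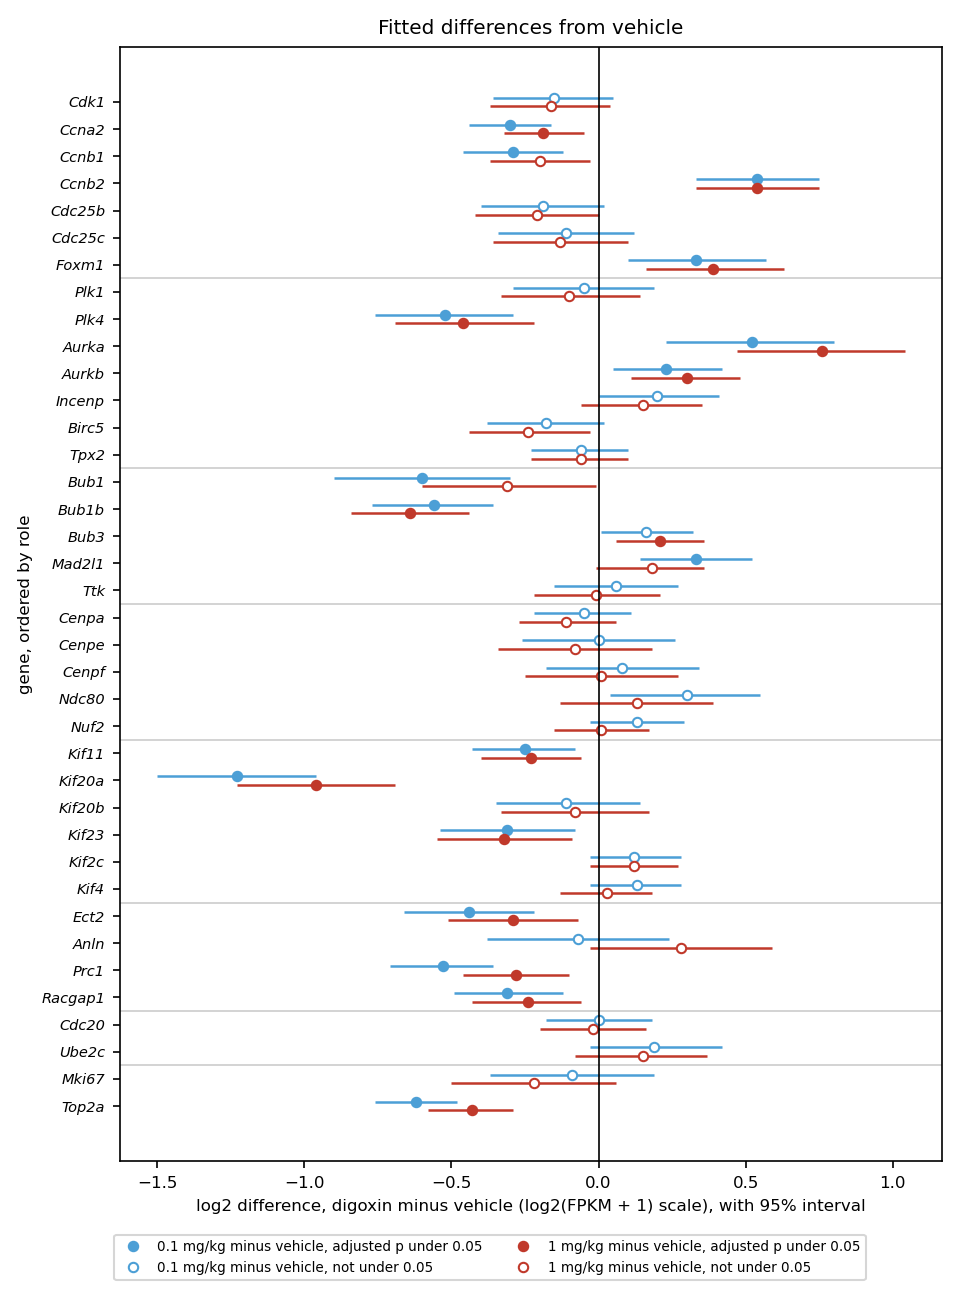
Fitted log2 difference from vehicle with its 95% interval (horizontal axis, log2(FPKM + 1) scale) for each of the 38 genes (vertical axis, grouped by role), at the low dose in blue and the high dose in red, filled where the limma adjusted p was under 0.05. Filled points to the right of 0 are Ccnb2, Foxm1, Aurka and Aurkb at both doses, Mad2l1 at the low dose and Bub3 at the high dose, and those to the left reach -1.23 (Kif20a).

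Between the doses, which asks whether the higher dose went further, none of the 38 genes was called by limma (background 0.0146%) or by limma-voom, and 3 had an unadjusted p under 0.05. These were Prc1 (high dose minus low dose, 0.25, SE 0.08, limma adjusted p = 0.227), Top2a (0.19, SE 0.06, 0.262) and Anln (0.35, SE 0.14, 0.306). Values of the doses did not overlap for Ccna2, Aurka, Kif4, Anln, Prc1 and Top2a (15.8%, against 17.0% of all genes). For Ccna2, Prc1 and Top2a, which were lower than vehicle at both doses, the high-dose libraries lay nearer to vehicle, while for Aurka, which was higher, they lay further from it. The differences between doses ranged from -0.16 to 0.35 over the set, with a median of -0.004 (all genes -0.05). A p that misses the threshold does not show that the doses act alike.

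As a description with no test, base composition was compared between the called groups. The GC content of the transcript had a median of 50.4% (range 40.1 to 54.6) in the 6 genes higher at 1 or both doses, 43.8% (40.2 to 50.4) in the 12 lower ones and 47.6% (39.4 to 56.0) in the 20 called at neither. Median gene length was 4350, 6120 and 4926 bases in the same order. When each library's trend on GC content and length was removed, an alternative chosen after seeing the data, the calls at the low dose were 7 higher and 11 lower. Aurka, Aurkb, Kif11 and Racgap1 were no longer among them, and genes not called as deposited, higher and lower ones, had joined. At the high dose the calls were 6 higher and 8 lower, without Kif11, Ect2 and Racgap1, and again with genes not called as deposited.

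Related genes outside the 38 were counted in the same fits, from lists set up by function. Over the 7 lists the share called was 27.0% to 47.8% at the low dose, beside 42.2% of all genes. At the high dose it was 30.3% to 61.5%, beside 45.9%. By direction, 21.6% of all genes were higher and 20.7% lower at the low dose, and 20.7% and 25.2% at the high dose. No test of a list was run, so the counts only describe the lists. Among 21 genes listed under condensin and cohesin, 1 was higher and 9 lower at the low dose, and 1 and 6 at the high dose. The one that was higher at both was Pttg1, with log2 differences of 1.04 and 1.09 (limma adjusted p = 0.000534 and 0.000423). Its product, securin, inhibits separase and is a subunit of neither complex. Of 17 anaphase-promoting complex genes, 5 were lower at the low dose and 6 at the high dose. Its subunit genes Cdc23 (-0.96 and -0.94), Anapc1 (-0.61 and -0.68) and Cdc16 (-0.57 and -0.66) were lower at both doses. Among 18 other regulators of entry, 4 were higher and 2 lower at the low dose and 3 and 3 at the high dose. Wee1, the kinase that holds CDK1 inactive, rose by 0.72 and by 1.32, and Mybl2, which encodes B-MYB, fell by 0.86 and by 0.82.

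Of 37 other kinetochore and centromere genes, 4 were higher and 6 lower at the low dose and 5 and 10 at the high dose. Trip13, the ATPase that takes MAD2 out of the checkpoint complex, differed by -0.78 and -1.0, and Spdl1, which brings dynein to the kinetochore, by 0.60 and 0.68. Of 33 other spindle, kinesin and cytokinesis genes, 5 were higher and 5 lower at each dose, with the centrosome kinase gene Nek2 at 0.51 and 0.66. Of the 13 tested among 16 CDK inhibitors and repressors, 3 were higher and 2 lower at the low dose and 5 and 3 at the high dose. Btg2 differed by 0.44 and 1.27, Cdkn2d by 0.32 and 0.35, and E2f4 by -0.70 and -0.69. DNA replication genes, 46 in the list, included 22 that were called at the low dose and 24 at the high dose: 4 were higher and 18 lower at the low dose (median -0.18) and 3 and 21 at the high dose (median -0.23).

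Markers of other cells moved with treatment in the same libraries, and their part in the differences above was not tested. The summed level of 13 T cell markers was 24.7 to 30.9 FPKM with vehicle, 51.5 to 84.9 FPKM at the low dose and 12.0 to 38 FPKM at the high dose, with 8 of the 10 tested higher at the low dose and 1 higher and 1 lower at the high dose. That of 11 fibroblast markers was 1000 to 1120 FPKM, 367 to 711 FPKM and 369 to 617 FPKM, with 3 higher and 4 lower at the low dose and 1 and 5 at the high dose. That of 11 neutrophil markers was 81.7 to 223 FPKM, 160 to 825 FPKM and 524 to 1220 FPKM, with 7 and 9 higher. Skeletal muscle markers, 10 tested of 12, summed to 55.2 to 127 FPKM, 204 to 384 FPKM and 93 to 1210 FPKM, with 5 and 4 higher. Immediate early genes, which cells switch on rapidly after stimulation, summed to 224 to 286 FPKM, 481 to 868 FPKM and 1140 to 2380 FPKM, with 7 and 10 of 10 higher. No marker of these lists was at 0 in every library, and Cd247, Cd5, Myh2 and Tnnc2 were below 1 FPKM in all 9. The 13 macrophage markers summed to 2820 to 3170 FPKM, 2990 to 4530 FPKM and 2150 to 3310 FPKM, with 6 higher at the low dose, and 5 higher and 2 lower at the high dose.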

How the data were processed

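Poly(A) RNA of 9 tumour samples, 3 per group, was analysed from 1 deposited table of FPKM values made by the authors. The submitters' processing notes name fastp 0.22.0, HISAT2 2.2.1 and GRCh38, which is a human build, while the symbols are of mouse genes. What counted the reads, and on which annotation, is not given in the sources used here. Groups came from the labels. Depths and gene lengths were recovered from the spacing of the FPKM values (whole reads within 0.03 reads in every library for 99.92% of tested genes) and served for limma-voom only, where reads without molecular identifiers are not independent molecules.

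A gene was tested if it reached 1 FPKM in 3 or more of the 9 samples. The test was limma 3.58.1 (R 4.3.3, variance trend) on log2(FPKM + 1), a scale that understates the change of low genes. One fit of 9 samples gave the 3 comparisons, two-sided, with Benjamini-Hochberg adjustment over the 13687 tested genes and a threshold of 0.05. This step was also run on data simulated from the means and spread of this fit, with known changes. Those changes were larger than nearly all differences of the members, so that run does not bear on calls of their size. The members and lists were chosen with earlier results of these data known. Every sample's value is given for called genes without overlap (at most 6 a direction and comparison, by smallest p) and for Mki67, Top2a, Cdk1, Ccnb1 and Foxm1; Bub1, Ndc80 and Anln were added after their values were seen. Of the related lists, named genes are among the 4 with the smallest p per comparison. Correlations between members are not given, because vehicle libraries lie apart from all digoxin libraries on the principal component with the most variance. Promoter sequences are from RefSeq, build GRCm38.p6; 21 of the 31 windows continued into a GENCODE transcript on the gene's strand and 0 on the other. GC content was available for 95.3% of tested genes. Alternatives tried were a pseudocount of 0.1 or 0.01, omitting the filter, a mean of at least 5 FPKM, quantile normalisation, TPM, equal medians, no trend, robust fitting, only the 2 groups compared, a replicate block and each library left out. Chosen after seeing the data were omission of both libraries that stood apart, loess correction (span 0.5) on GC content and length, and limma-voom. Python 3.11.15, pandas 2.3.3, NumPy 2.4.6 and matplotlib 3.10.9 were used for the rest.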

Additional observations from a re-analysis of the deposited data

How the results depend on the processing

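Under 23 alternative settings no called gene changed sign and no member was called between the doses: at the low dose 348 of 391 values of called genes stayed past the threshold and 43 did not, and at the high dose 284 of 345 did and 61 did not; the cause was not tested. Over fits without 1 library, members called ranged from 11 to 19 at the low dose and from 6 to 18 at the high dose, genes called from 3414 to 7074 (main 5781), from 4129 to 7373 (main 6277) and, between the doses, from 0 to 133 (main 2, 133 without low-dose replicate 2), and the members' median from -0.12 to -0.03, from -0.13 to -0.06 and from -0.05 to 0.03. Rescaled to TPM, the members' median was -0.18 at both doses; that scaling shifted the median of all genes by -0.11 at the low dose. Splits of all genes into higher and lower at the low dose were 2952 and 2829, against 2403 and 3552 with quantile normalisation and 2368 and 3790 in TPM. With a mean of at least 5 FPKM, fewer genes were tested and 4159 were called at the high dose. Genes called between the doses were 0 with either smaller pseudocount, with only the 2 groups compared and with the replicate block, 1 with a mean of at least 5 FPKM, equal medians, no trend or the loess correction, 10 with no filter, and 465 without both libraries that stood apart. Replicate numbers did not pair the samples: correlations of same-numbered samples' deviations ran from -0.44 to 0.28, and the replicate block called 15 and 10 members and 4967 and 5541 genes at the low and the high dose, ending the calls of Aurkb and Kif23 at the low dose and of Ccna2, Bub3, Kif11, Kif23, Ect2 and Racgap1 at the high dose. These calls rest on 3 samples a group, with 2 libraries that stood apart and at least 656 recovered reads per member and library.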
